A study of Mus musculus with 6 samples.

Results

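The genes described here are 10 immune checkpoint, costimulatory and phagocytosis genes, taken by symbol from the 55367 genes of an RNA-seq table of mouse leukemia stem cells (LSCs). They are the inhibitory ligands Cd274, Pdcd1lg2, Lgals9 and Vsir, the costimulators Cd80 and Cd86, the phagocytosis signal Cd47, and the inhibitory receptors Sirpa, Cd200r1 and Havcr2. No measured value entered the choice, although earlier results of these data were known when it was made. All 10 had values, and 9 had a mean of 1 or more on the deposited scale, which a gene needed to be tested. Pdcd1lg2 did not.

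The libraries came from LSCs that were sorted from bone marrow of mice with acute myeloid leukemia (AML), with 3 WT and 3 Piezo1cko libraries. Piezo1cko cells derived from Mx1-Cre; Piezo1 fl/fl donors and WT cells from Piezo1 fl/fl littermates without Cre, so the controls carried the floxed alleles too. Donors of both genotypes received poly(I:C), which switches on the interferon-driven Mx1-Cre, and their Lin- marrow cells were transduced with an MLL-AF9-YFP retrovirus and transplanted into irradiated recipients. The labels give an age of 8 to 10 weeks. The sources do not say from which transplant generation the sequenced cells came, or whether the 3 libraries of a group were separate mice, so the p-values measure the spread between these libraries, which may be technical. The cell gate was Lin-, Sca-1-, c-Kit+, CD34+ and CD16/32 high, in cells that carried YFP.

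Checkpoint ligands on a leukemia cell bind receptors on T cells and dampen their activation, whereas CD80 and CD86 can drive activation through CD28 or restrain it through CTLA-4. CD47 binds SIRPα on macrophages and holds back engulfment, which is why it is called a don't-eat-me signal. TIM-3, encoded by Havcr2, marks leukemia stem cells in human AML, and galectin-9 (Lgals9) is one of its ligands. Myeloid progenitors express several of these receptors themselves, so the genes can act on the leukemia cell as well as on its neighbors.

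In Piezo1cko LSCs, Lgals9 rose 1.52-fold and Sirpa rose 1.2-fold, whereas Cd200r1 fell to 34.6% of WT, Havcr2 to 34.3%, Cd86 to 15.7% and the abundant Cd47 to 87.4%. Cd274, Vsir and Cd80 did not pass the test. These percentages and folds compare reads recovered from the deposited values, after scaling for library size. The deposited values themselves are log2 values shrunken toward each gene's mean, the more so the fewer its reads, and on that scale the same 6 genes passed an adjusted p of 0.05 (limma), 2 of them higher and 4 lower. A large share of the transcriptome did as well: 63.0% of all 16746 genes tested passed, with 31.6% higher and 31.4% lower, so 6 of 9 is near the background and is not a result about these genes as a group. The even split rests on the scaling, since with library medians set equal 6450 genes were higher and 4214 lower. The median log2 fold change of the 9 genes tested here was -0.03 on the deposited scale and -0.20 in the reads. The medians of all genes tested were 6e-04 and -2e-04.

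The targeted gene was examined first. Piezo1, the mechanosensitive channel, had 104, 92 and 113 reads in the WT libraries and 35, 58 and 45 in the Piezo1cko libraries. It was lower in every Piezo1cko library but not absent, at 45.9% of WT (log2 fold change -0.29 on the deposited scale, adjusted p = 5.8e-06, limma). Which exons these reads cover cannot be seen in values summed per gene.

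Reads were recovered on the inference that the deposited values are a regularized log, a step that no source names. Such a log is made from whole reads, and its size factors and shrinkage were fitted so that undoing it came nearest to whole numbers. Of the recovered values of genes with a mean of at least 1 read, 92.9% differed from a whole number by 0.1 or less, a share that dropped to 23.1% when the shrinkage was set 10% off. The values of the genes described here were within 0.13 of a whole read, except those of Cd47, which lay up to 0.47 away and are rounded. The 6 libraries held 14112122 to 15483612 recovered reads on genes. Below, a fold change is first given on the deposited scale (limma with a variance trend) and then for the reads (limma-voom), with 95% confidence intervals and p-values adjusted over all genes tested by the Benjamini-Hochberg method. In sorted bulk cells, fewer cells of a type and less RNA per cell cannot be told apart.

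**Figure D1:**
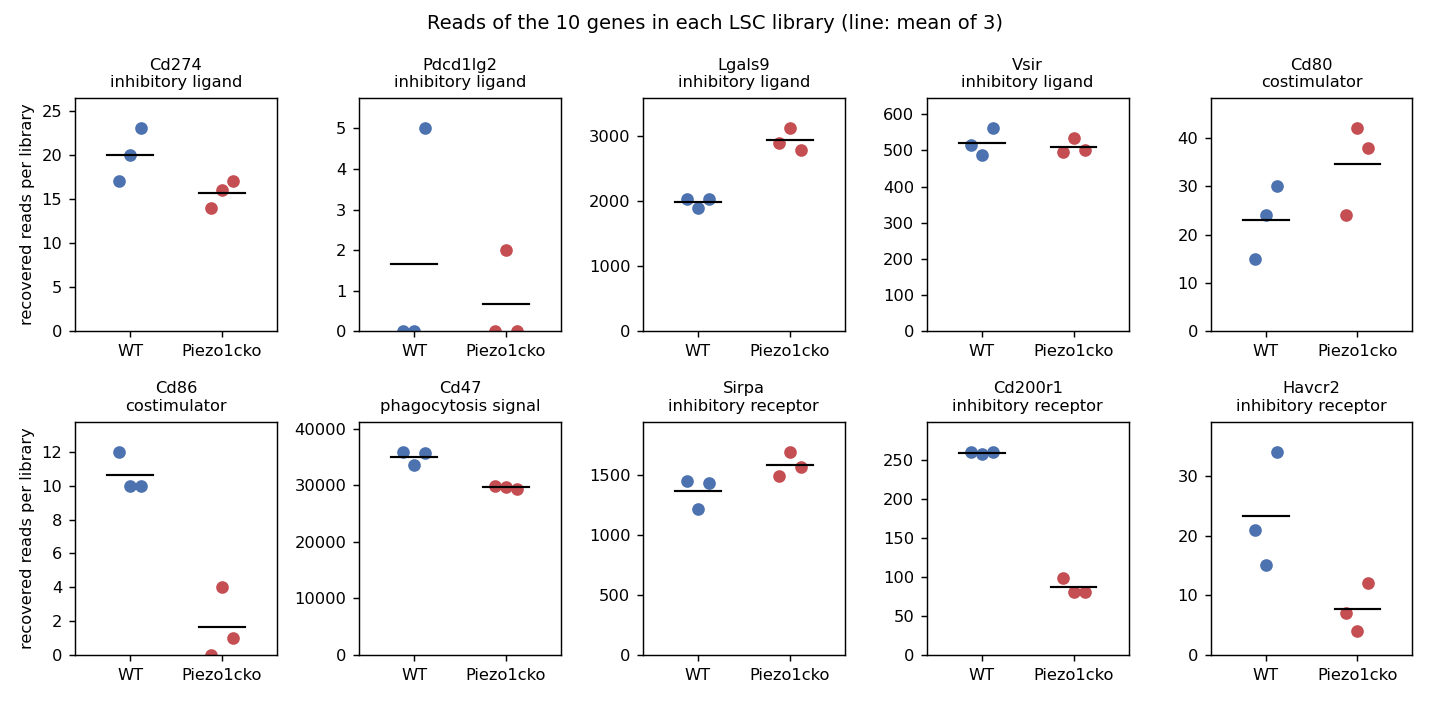
Recovered reads per library (y axes, linear from 0) of the 10 genes in 3 WT (blue) and 3 Piezo1cko (red) libraries, with a line at each group's mean. The groups are apart for Lgals9, Cd86, Cd47, Sirpa, Cd200r1 and Havcr2, and the highest library holds from 5 reads for Pdcd1lg2 to 35882 for Cd47.

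Markers of cell types moved between the groups. The genes of the gate were expressed, with Kit at 2466 to 2692 reads in WT and 3360 to 3423 in Piezo1cko. Their list also held Ptprc, Itgam, Hoxa9 and Meis1, which the gate as stated does not name. Of the 8 list genes other than Ly6a, 4 were higher and 2 lower (adjusted p under 0.05, limma, as for the lists that follow). The gate genes Kit and Cd34 were higher, as were Ptprc and Itgam. The gate gene Fcgr2b was lower, as was Meis1. Fcgr2b, which encodes CD32 of the CD16/32 gate, fell from 3665, 3428 and 3523 reads to 1662, 1728 and 1553, while Fcgr3, which encodes CD16, did not pass the test (log2 fold change -0.02, adjusted p = 0.574). Ly6a, which encodes the excluded Sca-1, had at most 1 read in WT and 7 to 17 in Piezo1cko and was higher. Mast cell and basophil markers summed to 282 to 297 RPM (reads scaled to library size) in WT and 830 to 836 in Piezo1cko, with 7 of 8 higher. Over all genes tested, 31.6% were higher and 31.4% lower, the background for this count and those that follow. Cpa3, Prss34 and Gata2 held most of these marker reads, and Cpa3 rose from 587, 528 and 617 reads to 4990, 4990 and 4846. Dendritic cell markers summed to 58.4 to 61.4 and 123 to 126, with 6 of 8 tested higher and 2 lower. Most of that sum was Flt3, which rose from 639, 656 and 687 reads to 1582, 1608 and 1570. The lower ones were Zbtb46 and Ccr7. Zbtb46 fell from 183, 176 and 195 reads to 66, 88 and 68. Ccr7, chosen after its values were seen, had 28, 26 and 29 reads in WT and none in Piezo1cko. B cell markers summed to 818 to 846 and 1520 to 1540 (3 of 4 tested higher, mostly Ighm), and neutrophil markers to 80.8 to 85.4 and 53.2 to 54.6 (4 of 6 lower and 1 higher, Retnlg at 0). The higher one, Mmp8, rose from 39, 42 and 49 reads to 623, 639 and 616 and so made up most of the Piezo1cko sum, while S100a9 fell from 284, 252 and 265 reads to 8, 6 and 4. Erythroid markers summed to 8.05 to 9.7 and 2.42 to 2.78 (2 of 4 lower). The sums of macrophage markers, at 149 to 163 and 156 to 159, overlapped (3 of 6 higher, with C1qa, Cd5l and Fcgr1 at 0). Adgre1, Csf1r and Vcam1 held most of these reads and did not pass. The higher ones had few reads. C1qb had 0, 2 and 0 reads in WT and 6, 17 and 10 in Piezo1cko. C1qc had none in WT and 21, 29 and 15 in Piezo1cko, and Spic 0, 3 and 0 and then 20, 11 and 10. T and NK cell markers were at 0.517 to 1.1 and 3.47 to 4.5 (2 of 3 tested higher and 1 lower, Trbc2 and Cd8a at 0). The rise of that sum came mostly from the NK gene Klrb1c, with no read in WT and 32, 38 and 52 in Piezo1cko. The T cell genes tested went opposite ways. Trac rose from 5, 2 and 2 reads to 17, 16 and 13 (adjusted p = 0.000351, limma). Cd3d had 7, 5 and 4 reads in WT and 0, 2 and 0 in Piezo1cko (adjusted p = 0.00628, limma). Mature dendritic cells carry Cd80, Cd86 and Havcr2, and mast cells and basophils carry Cd200r family genes. The part of these markers in the changes described below was not tested.

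RefSeq promoter sequences (GRCm38.p6) were found for 7 of the 10 genes, all but Cd86, Sirpa and Cd200r1. The 4 printed here, each the 250 bases before the start site, 5′ to 3′ on the gene's strand, belong to the ligands Lgals9, Cd47 and Cd274 and to Havcr2. They are shown because these were the promoters that held a match to one of the elements searched, and because the factors that bind such elements are among the regulators described further on. Capitals mark the matches. The elements were the hypoxia response core ACGTG and its variant GCGTG, the gamma-activated site TTCNNNGAA, the core of the interferon-stimulated response element (ISRE) and the C/EBP-ATF element TGATGNAA, on both strands.
Lgals9, chr11:78984925-78985174, minus strand: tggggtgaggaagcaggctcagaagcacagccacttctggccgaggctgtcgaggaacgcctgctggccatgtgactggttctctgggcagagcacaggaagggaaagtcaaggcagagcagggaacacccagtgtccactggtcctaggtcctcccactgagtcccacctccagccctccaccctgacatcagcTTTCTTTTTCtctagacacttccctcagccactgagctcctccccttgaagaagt
Cd47, chr16:49855404-49855653, plus strand: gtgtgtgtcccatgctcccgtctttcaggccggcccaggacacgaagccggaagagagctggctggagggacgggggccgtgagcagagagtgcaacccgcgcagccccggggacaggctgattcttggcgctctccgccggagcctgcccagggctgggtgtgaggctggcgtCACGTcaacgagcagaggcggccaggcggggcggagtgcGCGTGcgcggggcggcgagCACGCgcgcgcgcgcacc
Havcr2, chr11:46454681-46454930, plus strand: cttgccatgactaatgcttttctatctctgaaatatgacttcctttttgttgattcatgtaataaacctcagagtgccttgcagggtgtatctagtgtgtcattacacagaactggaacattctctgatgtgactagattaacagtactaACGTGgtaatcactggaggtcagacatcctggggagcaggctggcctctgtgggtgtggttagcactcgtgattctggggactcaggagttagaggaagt
Cd274, chr19:29367188-29367437, plus strand: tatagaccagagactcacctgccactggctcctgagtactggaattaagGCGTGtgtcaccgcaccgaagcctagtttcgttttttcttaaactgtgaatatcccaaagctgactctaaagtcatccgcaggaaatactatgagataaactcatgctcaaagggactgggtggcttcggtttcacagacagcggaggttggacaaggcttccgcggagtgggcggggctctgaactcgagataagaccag
The Lgals9 window held the interferon-stimulated core on the opposite strand, its first base 55 bases before the start, an element found in 3.0% of 32851 promoters of the same length. The Cd47 window held ACGTG once, on the opposite strand, and GCGTG once on each strand, and none of these 3 matches overlapped another. Its RefSeq start site lies inside the longer GENCODE gene. Havcr2 held ACGTG once, 100 bases before the start, and Cd274 held GCGTG once, 201 bases before it. These short cores are common, with ACGTG in 16.6% and GCGTG in 28.2% of all promoters. The gamma-activated site (7.0% of promoters) and the C/EBP-ATF element (3.5%) matched none of the 7, and the windows of Vsir, Cd80 and Pdcd1lg2 held no match. A match of letters is a description of the sequence and does not show that a factor binds there.

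Among the inhibitory ligands tested, Lgals9 (ENSMUSG00000001123, chr11:78962974-78984946, minus strand) was the one that passed the test. Galectin-9 is a secreted and surface lectin that binds TIM-3. Its gene had 2034, 1894 and 2035 reads in WT and 2898, 3119 and 2789 in Piezo1cko. All 3 Piezo1cko libraries were above all 3 WT libraries. The deposited values rose from 11.02 ± 0.02 to 11.45 ± 0.04 (SD, n = 3 each), a log2 fold change of 0.43 (95% confidence interval 0.37 to 0.49, adjusted p = 2.71e-10, limma). In the reads the log2 fold change was 0.61 (0.53 to 0.69, adjusted p = 2.63e-09, limma-voom).

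Cd274 (ENSMUSG00000016496, chr19:29367455-29388095, plus strand) encodes PD-L1, the main ligand of PD-1. It had few reads, with 17, 20 and 23 reads in WT and 14, 16 and 17 in Piezo1cko. After scaling for library size the groups overlapped. The log2 fold change was -0.03 on the deposited scale (-0.08 to 0.03, adjusted p = 0.383, limma) and -0.29 in the reads (-0.88 to 0.30, adjusted p = 0.378, limma-voom). The summed reads gave a ratio of Piezo1cko to WT of 0.808, with a counting interval of 0.54 to 1.2, so a difference within these bounds was not detectable at this depth. Its exons share 511 bases, 14.1% of their length, with the antisense gene AC119228.1, and the library kit does not keep strand, so reads from that stretch cannot be assigned.

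Pdcd1lg2 (ENSMUSG00000016498, chr19:29410919-29471161, plus strand) encodes PD-L2, the other PD-1 ligand. It had 0, 0 and 5 reads in WT and 0, 2 and 0 in Piezo1cko. At 7 reads in all it was too low to be tested in either fit. The ratio of the summed reads, 0.413, had a counting interval of 0.0393 to 2.52.

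Vsir (ENSMUSG00000020101, chr10:60346851-60372684, plus strand) encodes VISTA, a B7 family protein of myeloid cells that inhibits T cells. It had 514, 488 and 561 reads in WT and 495, 533 and 501 in Piezo1cko. The Piezo1cko libraries lay inside the WT range. The log2 fold change was 0.01 on the deposited scale (-0.06 to 0.08, adjusted p = 0.836, limma) and 0.02 in the reads (-0.11 to 0.14, adjusted p = 0.841, limma-voom), intervals that leave room for small changes only. Vsir lies within Cdh23 on the opposite strand, and no exon base is shared between them.

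The costimulators CD80 and CD86 are a pair of B7 proteins that bind the same T cell receptors, and of their genes Cd86 passed the test here and Cd80 did not. Cd86 (ENSMUSG00000022901, chr16:36603869-36666081, minus strand) had 12, 10 and 10 reads in WT and 0, 4 and 1 in Piezo1cko. No Piezo1cko library reached the lowest WT library. The log2 fold change was -0.07 on the deposited scale (-0.10 to -0.04, adjusted p = 0.00102, limma), which shrinks a gene of so few reads almost to its mean, and -0.04 (adjusted p = 0.0191) with library medians set equal. In the reads it was -2.83 (-4.15 to -1.51, adjusted p = 0.000979, limma-voom), and the counting interval of the read ratio, 0.0491 to 0.417, was wide too.

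Cd80 (ENSMUSG00000075122, chr16:38455561-38496335, plus strand) had 15, 24 and 30 reads in WT and 24, 42 and 38 in Piezo1cko. The highest values were in Piezo1cko, but the groups overlapped. The log2 fold change was 0.08 on the deposited scale (0.01 to 0.16, adjusted p = 0.0559, limma) and 0.65 in the reads (0.03 to 1.27, adjusted p = 0.0617, limma-voom). The test was missed narrowly, and the call rested on single libraries: without WT replicate 3 the adjusted p was 0.0433 on the deposited scale, and without Piezo1cko replicate 1 it was 0.0166, whereas without WT replicate 1 the read-based log2 fold change fell to 0.37 (adjusted p = 0.289). With the replicate number as a block the adjusted p was 0.0319. The difference between the responses of Cd80 and Cd86 was not itself tested.

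Cd47 and Sirpa encode the ligand and the receptor of the same don't-eat-me signal, and both had reads in every library, at least 1218 for Sirpa. Cd47 (ENSMUSG00000055447, chr16:49800533-49915010, plus strand) had 35882, 33554 and 35744 reads in WT and 29879, 29765 and 29298 in Piezo1cko. Every Piezo1cko library was below every WT library. The deposited values fell from 15.04 ± 0.02 to 14.90 ± 0.04 (SD, n = 3 each), a log2 fold change of -0.15 (-0.18 to -0.11, adjusted p = 1.25e-06, limma). In the reads it was -0.20 (-0.24 to -0.15, adjusted p = 2.29e-06, limma-voom), a small decrease measured with high precision at this depth.

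Sirpa (ENSMUSG00000037902, chr2:129592835-129632228, plus strand), an inhibitory receptor of phagocytes and myeloid progenitors, had 1451, 1218 and 1432 reads in WT and 1492, 1690 and 1567 in Piezo1cko. The lowest Piezo1cko library was above the highest WT library by a small margin. The log2 fold change was 0.18 on the deposited scale (0.10 to 0.25, adjusted p = 0.000256, limma) and 0.26 in the reads (0.15 to 0.37, adjusted p = 0.000359, limma-voom). Ligand and receptor thus went in opposite directions, and both changes were under 1.5-fold.

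Cd200r1 (ENSMUSG00000022667, chr16:44765736-44794978, plus strand) encodes an inhibitory receptor of myeloid cells whose ligand is CD200. It had the largest change on the deposited scale among the 9 genes tested, with 260, 258 and 260 reads in WT and 98, 81 and 81 in Piezo1cko. The WT libraries were nearly equal, and the Piezo1cko libraries lay far below them. The deposited values fell from 7.61 ± 0.02 to 6.99 ± 0.07 (SD, n = 3 each), a log2 fold change of -0.62 (-0.71 to -0.54, adjusted p = 2.35e-10, limma), and the log2 fold change of the reads was -1.54 (-1.79 to -1.29, adjusted p = 2.39e-08, limma-voom). Of its 50-base stretches, 1.16% also occur in Cd200r4 or Gm17928, so reads from these could be shared.

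The gene's neighbors in the CD200 receptor family did not follow one direction. The family lies on chromosome 16, where Cd200r4 had 156, 125 and 144 reads in WT and 110, 120 and 119 in Piezo1cko (adjusted p = 0.063, limma). Cd200r3, an activating member found on mast cells and basophils, rose from 74, 61 and 58 reads to 119, 120 and 142 (log2 fold change 0.31, adjusted p = 2.94e-06, limma). Cd200r2 had 4 to 8 reads in each library (adjusted p = 0.412). Cd200, which encodes the ligand, was listed at 0 in all 6 libraries. Cd200r2, Cd200r3 and Cd200r4 were chosen after their values were seen.

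Havcr2 (ENSMUSG00000020399, chr11:46454935-46481255, plus strand) encodes TIM-3. It had 21, 15 and 34 reads in WT and 7, 4 and 12 in Piezo1cko. The groups did not overlap, but the counts were low and the WT libraries spread widely. The log2 fold change was -0.11 on the deposited scale (-0.17 to -0.05, adjusted p = 0.00426, limma) and -1.56 in the reads (-2.47 to -0.65, adjusted p = 0.00504, limma-voom). The read ratio was 0.339, with a counting interval of 0.202 to 0.55. Havcr2 and Lgals9, receptor and ligand, thus moved in opposite directions, as Cd47 and Sirpa did.

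**Figure D2:**
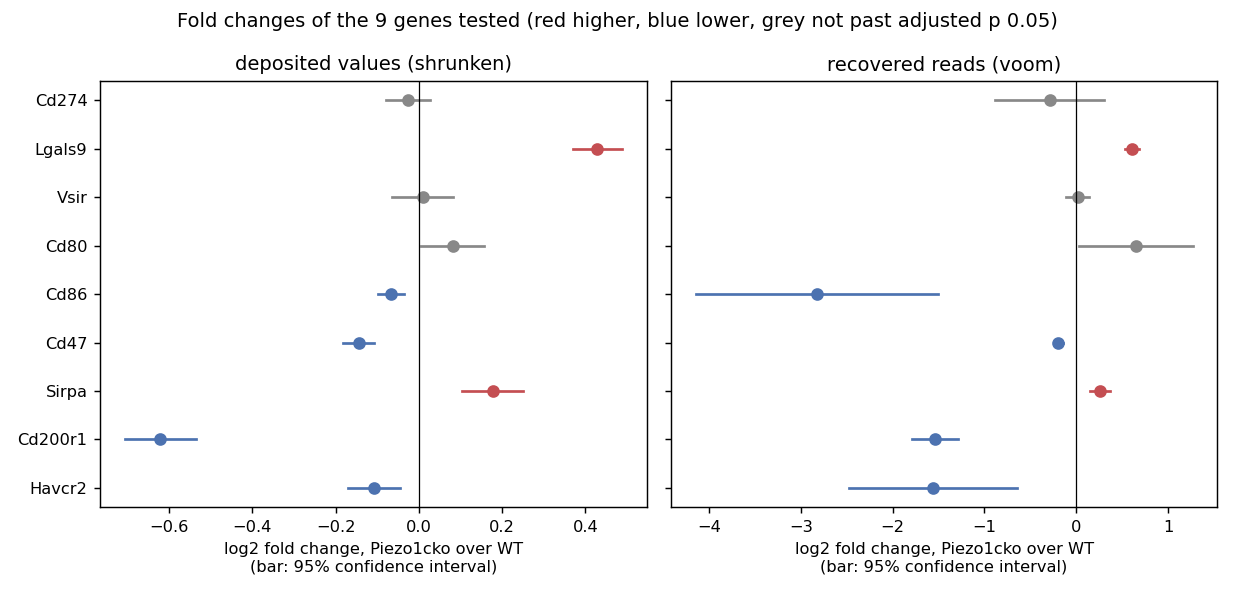
Log2 fold changes of Piezo1cko over WT (x axes) with 95% confidence intervals for the 9 genes tested, on the deposited shrunken values (left) and on the recovered reads (right), in red where higher, blue where lower and grey where the adjusted p was not under 0.05. Each gene keeps its side of 0 in both panels, while Cd86 goes from -0.07 to -2.83 and Havcr2 from -0.11 to -1.56.

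The size of a change depended on the scale. The study's thresholds ask for an adjusted p under 0.05 together with a log2 fold change above 1 or below -1. None of the 9 genes passed both on the deposited values, where 0.818% of all genes did (limma). Without the fold threshold 6 passed there. In the reads, 3 of the 9 passed both thresholds, Cd86, Cd200r1 and Havcr2, all lower, against 24.9% of 17352 genes (limma-voom). Of these genes 62.9% passed the adjusted p alone, and 6 of the 9 genes did. For 6 of the 9 the groups did not overlap on the deposited scale, against 66.6% of all genes. The read-based intervals of Cd86 and Havcr2 are wide, and the direction of their changes is better determined than the size.

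Levels were compared per exon length, as RPKM (reads scaled to exon length and to library size). In WT the RPKM order was Cd47 at 367.2, Lgals9 at 61.1, Sirpa at 18.3, Vsir at 6.83 and Cd200r1 at 5.09. These 5 were apart from each other in every library. The other 5 genes lay at 0.561 RPKM or below, and the ranges of Havcr2, Cd80 and Cd274, at 0.561, 0.409 and 0.363, overlapped between neighbors. Cd86 followed at 0.192 and Pdcd1lg2 at 0.0549. Among the 4 inhibitory ligands, the transcripts of galectin-9 and VISTA were thus the abundant ones, and those of PD-L1 and PD-L2 were scarce.

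In Piezo1cko the first 5 ranks were the same, with Cd47 at 324.8, Lgals9 at 94.4, Sirpa at 22.1, Vsir at 6.98 and Cd200r1 at 1.78 RPKM. Cd80, at 0.640, then stood above Cd274 at 0.297 and Havcr2 at 0.195, which overlapped each other. Cd86 at 0.0304 and Pdcd1lg2 at 0.0225 overlapped too.

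**Figure D3:**
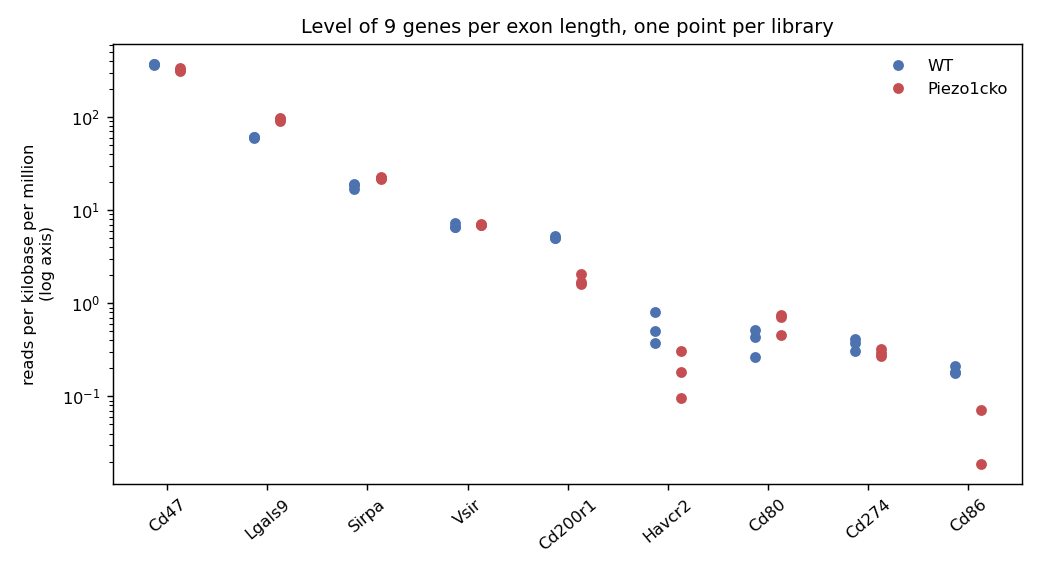
RPKM, or reads scaled to exon length and library size (y axis, logarithmic), of 9 genes in each WT (blue) and Piezo1cko (red) library. Levels fall from 367.2 for Cd47 to 0.192 for Cd86 in WT; Pdcd1lg2 and the Piezo1cko library without a Cd86 read are not drawn on the log axis.

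Of the 10 genes, 4 lie in one stretch of chromosome 16 (chr16:36603869-49915010), namely Cd86, Cd80, Cd200r1 and Cd47. Of these, 3 fell and Cd80 did not pass the test. In all, 63 genes of this stretch were tested, with these 4 included, as they set its bounds. Of the 63 genes, 25 were higher and 23, or 36.5%, were lower in Piezo1cko (limma), against 31.4% lower over all genes. Their median log2 fold change was -0.002.

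The wider pathways were described with 5 lists holding 90 genes in all. Of the 69 tested, 32 were higher and 23 lower (adjusted p under 0.05, limma), so that 55 passed, where 63.0% of all genes tested did. The lists were described by these counts and not tested as sets. Among the 21 other ligands and costimulators, 13 were tested, 6 were higher and 6 lower, and the median log2 fold change was 0.03. Lgals3, which encodes galectin-3, fell most, from 4565, 4463 and 4783 reads to 1674, 1937 and 1782 (log2 fold change -0.94, adjusted p = 1.36e-15). This is the opposite direction to Lgals9. Icam1, the adhesion ligand of LFA-1, fell from 336, 352 and 362 reads to 148, 212 and 194 (-0.43, adjusted p = 1.53e-07). Pvr, or CD155, the ligand of TIGIT, CD96 and CD226, rose from 639, 668 and 708 reads to 973, 1039 and 1035 (0.41, adjusted p = 6.22e-09). Cd276, Vtcn1, Cd200, Tnfsf4, Tnfsf18 and Cd70 were listed at 0 in every library.

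Lymphocyte receptors that bind such ligands were partly absent. Of 11 listed, Ctla4, Icos, Tigit and Cd160 were at 0 in every library, and Pdcd1, which encodes PD-1, had 4, 2 and 1 reads in WT and none in Piezo1cko. Of the 5 tested, 4 were higher, namely Btla, Cd28, Cd244a and Lag3, and Cd96 was lower (median log2 fold change 0.24). Btla, the receptor of HVEM, rose from 213, 197 and 228 reads to 402, 418 and 381 (0.49, adjusted p = 1.91e-09, limma). Cd28, the activating receptor of CD80 and CD86, rose from 172, 156 and 163 reads to 268, 292 and 254 (0.35, adjusted p = 2.04e-07). Cd96 had 61, 48 and 76 reads in WT and none in any Piezo1cko library (adjusted p = 4.02e-09). Lag3, chosen after its values were seen, had 0, 1 and 0 reads in WT and 24, 24 and 26 in Piezo1cko (adjusted p = 4.6e-07).

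The list of inhibitory phagocyte signals held 20 genes, of which 18 were tested, 7 were higher and 4 lower, namely Lilrb4a, Clec12a, Thbs1 and Pilra. Its median log2 fold change was 0.03, or 0.04 with Sirpb1a, which had no read in WT, placed at the top of the list. Pirb, an inhibitory receptor for MHC class I, rose from 184, 193 and 194 reads to 465, 504 and 434 (0.70, adjusted p = 1.71e-11, limma). Lilrb4a, another ITIM-bearing receptor, fell from 252, 193 and 228 reads to 70, 64 and 58 (-0.64, adjusted p = 3.88e-10). These receptors thus moved in opposite directions. Clec12a, an inhibitory lectin of myeloid cells and AML blasts, fell from 25868, 23975 and 25267 reads to 16911, 17495 and 16185 (-0.39, adjusted p = 4.17e-12). Thbs1 encodes thrombospondin-1, another ligand of CD47, and had 47, 35 and 28 reads in WT against 0, 1 and 0 in Piezo1cko (adjusted p = 3.5e-07). The phosphatases that carry the signal of SIRPα, Ptpn6 and Ptpn11 (chosen after their values were seen), did not pass the test, with log2 fold changes of 0.00 and -0.04 (adjusted p = 0.918 and 0.367).

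Of 17 eat-me genes, 13 were tested, 6 were higher and 4 lower, namely Xkr8, Pdia3, Cd93 and Gas6 (median 0.04). Calr, the calreticulin that prompts engulfment when exposed on the surface, had 3792, 3702 and 3926 reads in WT and 3337, 3713 and 3508 in Piezo1cko (log2 fold change -0.05, adjusted p = 0.0868, limma). Anxa1, a phosphatidylserine-binding annexin, rose from 1483, 1374 and 1504 reads to 2189, 2223 and 2315 (0.47, adjusted p = 2.17e-10). Mfge8, which bridges exposed phosphatidylserine to phagocytes, rose from 766, 871 and 895 reads to 1247, 1442 and 1230 (0.45, adjusted p = 2.72e-08). Cd36, a scavenger receptor, had 0, 1 and 0 reads in WT and 54, 71 and 52 in Piezo1cko (adjusted p = 1.43e-09).

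The regulators of Cd274, most of them in interferon signaling, included 20 tested genes of 21 listed, with 9 higher and 8 lower (median -0.05). Cmtm6, whose product keeps PD-L1 on the surface, had 5386, 5163 and 5494 reads in WT and 4743, 5062 and 5000 in Piezo1cko (log2 fold change -0.05, adjusted p = 0.0551, limma), and in the reads the decrease passed the test (-0.07, adjusted p = 0.0368, limma-voom). Irf1, an interferon-induced activator of Cd274, rose from 374, 354 and 397 reads to 468, 498 and 481 (0.23, adjusted p = 1.34e-05).

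Hif1a, the hypoxia factor that binds the response core searched above, fell from 919, 834 and 934 reads to 341, 376 and 338 (-0.79, adjusted p = 6.11e-13, limma). Jak2, a kinase of cytokine receptors, fell from 415, 425 and 420 reads to 272, 226 and 266 (-0.36, adjusted p = 1.29e-06). Socs3, a feedback inhibitor of such receptors, had 505, 470 and 587 reads in WT and 10, 9 and 8 in Piezo1cko (adjusted p = 1.84e-17), and it was the one gene of the 5 lists past both thresholds on the deposited values. In the reads 17 genes of these lists passed both, 8 higher and 9 lower (limma-voom). Over all genes tested, 0.818% passed both on the deposited values, and 24.9% of 17352 did in the reads. These counts describe the lists and were not tested as sets. Ciita, the activator of MHC class II genes, had 1, 4 and 0 reads in WT and 6, 7 and 9 in Piezo1cko (0.04, adjusted p = 0.00856).

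**Figure D4:**
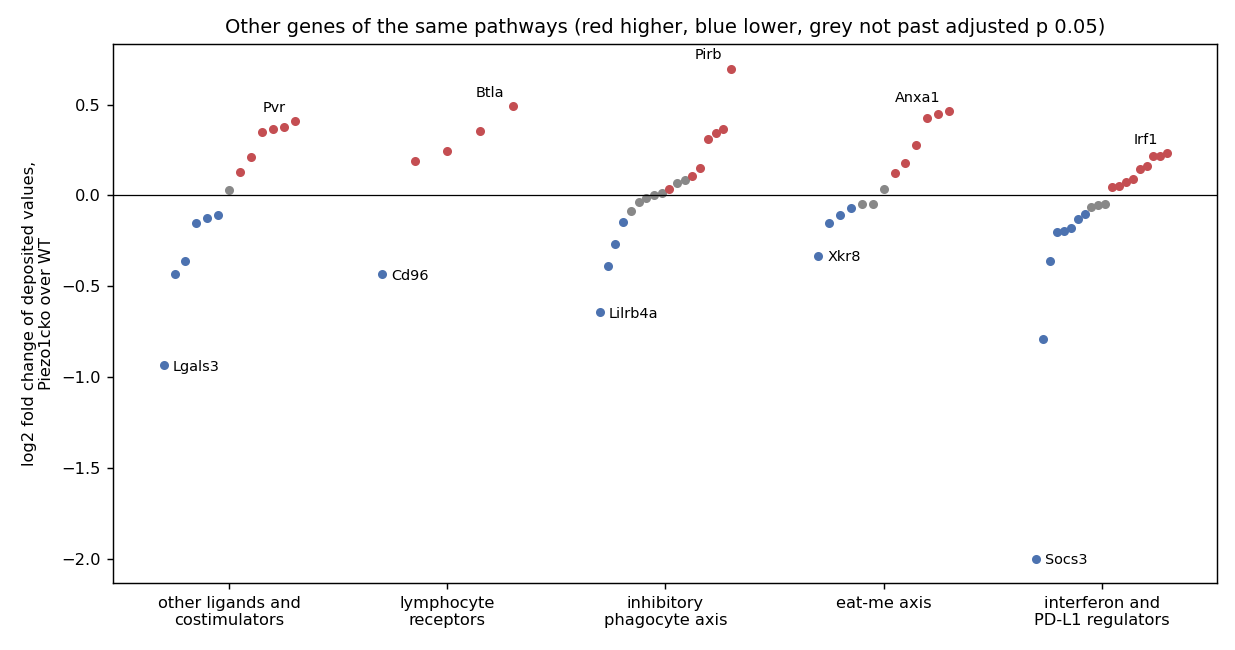
Log2 fold change of the deposited values, Piezo1cko over WT (y axis), of the 69 tested genes in 5 pathway lists, each point a gene, red where higher, blue where lower and grey where the adjusted p was not under 0.05. In every list points lie on both sides of 0, and Socs3, the lowest point, is the one gene beyond 1 in size.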

How the data were processed

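The 10 genes and the gene lists were chosen with earlier results of these data known. Per the labels, mRNA of sorted LSCs was isolated with oligo-dT beads and made into libraries by a protocol based on Smart-seq2 with Tn5 fragmentation, which does not mark strand. The submitters' processing notes name fastp (version 0.20.1), HISAT2 (version 2.2.1, GRCm38), featureCounts (version 2.0.1) and DESeq2 (version 1.28.1). The deposited values are on a log2 scale, normalized by the authors, and their form is that of a regularized log, a step that no source names. They run from -1.97 to 18.06 in 26402 genes, and the other 28965 genes stand at 0 throughout. No pseudocount was added.

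The 16746 genes whose mean was 1 or more entered a limma fit (limma version 3.58.1 in R version 4.3.3), eBayes with a trend and no covariate, over all 6 libraries. P-values were two-sided and adjusted by Benjamini-Hochberg. A count model had been planned in case the table held counts, which it did not. The regularized log was undone by fitting size factors and shrinkage, and all 10 starting points of the fit came within 0.03 of the best share of whole values. The recovered reads of genes with at least 10 reads in total (17352) were fitted with limma-voom on library sizes set from the size factors. The scripts were tested on simulated data. Counting intervals of read ratios are exact and cover counting error only, as PCR reads carry no molecular identifiers. Replicates of a group differed by a chi-square per gene of 1.55 to 2.80, where counting noise alone would give about 1, and were kept as separate samples.

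Genes were named by rule: the 10 genes, Piezo1, of each list the 3 with the largest absolute log2 fold change among those past the test, the binding partners Pdcd1, Ctla4, Cd28, Thbs1, Cd200 and Calr, and the regulators Hif1a, Irf1, Ciita and Cmtm6. Some items of the lists are not reported here. Marker lists are reported mainly as sums. Gene positions and exon lengths are from GENCODE on GRCm38, and promoters are from RefSeq on GRCm38.p6.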

Additional observations from a re-analysis of the deposited data

How the results depend on the processing

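The number of genes past an adjusted p of 0.05 was 10556, and 6965 with a mean of at least 6 on the deposited scale, where fewer genes were tested. It was 9596 to 10121 when each library was left out in turn on the deposited values and 9715 to 10259 on the reads. Of the 9 genes tested, 6 or 7 passed in each of these, and 4 with the higher filters, which removed the low genes. The number past both thresholds was 0 on the deposited values and 3 in the reads with size factors, with library totals and with the replicate block, and 3 to 3 as each library was left out. It was 1 with a mean of at least 50 reads, where Cd86 and Havcr2 were not tested. The 6 genes called passed under every setting in which they were tested, and Cd274 and Vsir under none. Cd80 passed with library medians set equal (log2 fold change 0.10, adjusted p = 0.0137). Vsir, which was not called, changed sign without WT replicate 1 (-4e-04 on the deposited scale, -0.0014 in the reads) and without WT replicate 2 (-0.0057 and -0.0094), the values on leaving out a library running up to 0.0333 on the deposited scale and 0.0566 in the reads. With library medians set equal, Cd86 had a smaller log2 fold change (-0.04, adjusted p = 0.0191). The cause of these shifts was not tested.

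The replicate numbers were not taken as pairs, since the deviations of same-numbered libraries correlated at 0.20, 0.16 and 0.07, although each library correlated best with its own number. With the replicate number as a block, 11055 genes passed on the deposited values and 11224 in the reads, and 7 of the 9 genes passed, Cd80 being added (log2 fold change 0.08, adjusted p = 0.0319; in the reads 0.62, adjusted p = 0.0386). Calr (adjusted p = 0.0315) and Cmtm6 (0.0114) passed with the block too, and Cmtm6 also without a variance trend (0.0456), but not in the reads with library totals (0.112). The reads-based block and leave-one-out fits and the filter of 50 reads were chosen after seeing the data. Low depth limits Cd274, Cd80, Cd86, Havcr2 and Pdcd1lg2.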
